A study of Mus musculus with 12 samples.

Results

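The genes described here encode the secreted ligands of the transforming growth factor beta (TGF-beta) superfamily and 4 antagonists that bind them outside the cell. The 35 genes were taken by name: 19 BMP and GDF ligands (including Mstn, which encodes myostatin), 8 genes of the activin, inhibin, Nodal and Lefty group, 3 TGF-beta ligands, Amh, and the antagonists Nog, Chrd, Grem1 and Fst. All 35 were found among the 21755 protein-coding genes that GENCODE places on chromosomes 1 to 19 and X of the mouse genome mm10 (GRCm38). Each was scored by whether any transcript had a site of histone H3 lysine 27 trimethylation (H3K27me3) within 1 kb of its transcription start site (TSS), and by the share of the gene, from its first to its last annotated base, that such sites covered.

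The study measured H3K27me3 by ChIP-seq in iMEF cells, immortalized mouse embryo fibroblasts. In all groups the cells carried a lentiviral construct encoding human ASH2L, which is part of the COMPASS/KMT2 histone methyltransferases, with an N-terminal FKBP12F36V tag, and their floxed endogenous Ash2l had been deleted by Cre-ER. The ChIP-seq cells were 1 selected clone, NG3. The compound dTAG makes the cell degrade the tagged protein. Of the 12 libraries, 8 were of H3K27me3, with 2 for each of 4 groups (no treatment, or dTAG for 16 h, for 24 h or for 48 h), and 4 were input controls, 2 untreated and 2 treated for 48 h.

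The values used here are a single list of 101389 sites found over all samples, with a position for each site and no value for any library. A gene therefore has 1 set of positions for all groups together. Which library or time point a site came from, the read depth behind it and the spread between replicates are unknown here, and no difference between untreated and treated cells could be tested. Everything below describes where listed sites lie, without a test. The list holds no RNA measurement, so neither the fibroblast identity of the cells nor the expression of any gene was checked.

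As background, H3K27me3 is placed by the Polycomb repressive complex PRC2 and is typical of developmental regulator genes that a cell type does not use. Many of its targets have CpG islands, stretches of DNA rich in unmethylated CpG dinucleotides. Ligands of the TGF-beta superfamily are secreted as dimers and bind complexes of type I and type II receptor kinases, which phosphorylate SMAD proteins. BMPs and many GDFs signal mainly through SMAD1, SMAD5 and SMAD9, and activins, Nodal and the TGF-betas mainly through SMAD2 and SMAD3. In fibroblasts, TGF-beta signalling is known for inducing extracellular matrix genes.

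Sites were frequent at the starts of these genes. A site lay within 1 kb of a TSS in 23 of the 35 genes (65.7%), whereas this was so for 26.9% of all protein-coding genes. In 21 of the 23 the site contained a TSS, and the exceptions were Gdf9 and Gdf11. A TSS thus lay inside a site in 60% of the 35 genes, against 21.4% of all protein-coding genes. By family, 14 of 19 BMP and GDF genes, 5 of 8 activin and Nodal genes, 1 of 3 TGF-beta genes and 3 of 4 antagonists had a site, and Amh had none. The families are small, and their shares were not compared by a test. With sites counted by their centre (18.5% of all protein-coding genes), Inhbc and Inhbe dropped out and 3 of 8 activin and Nodal genes were left. With sites of at least 3000 bp only (15.8% of all protein-coding genes), Tgfb1 dropped out and 0 of 3 TGF-beta genes were left.

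Sites also extended over the genes. The median share of the gene covered was 16.4% over the 35 genes, and the median over all protein-coding genes was 0%. The members' median fell to 7.51% without the 1 kb that follow the gene start and to 7.72% with sites of at least 3000 bp only. At least 50% of the gene was covered in 9 of 35, against 10.1% of all protein-coding genes. These 9 were Gdf7, Nog, Bmp2, Bmp10, Gdf10, Inhbc, Bmp4, Lefty2 and Gdf6, in order of falling coverage. A further 7 genes had from 20% to under 50% and 7 had less than 20% but more than 0. The remaining 12 had no covered base, among them Gdf11, whose site lies upstream. Any covered base was thus found in 23 of 35 genes (65.7%), against 30.6% of all protein-coding genes.

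**Figure D1:**
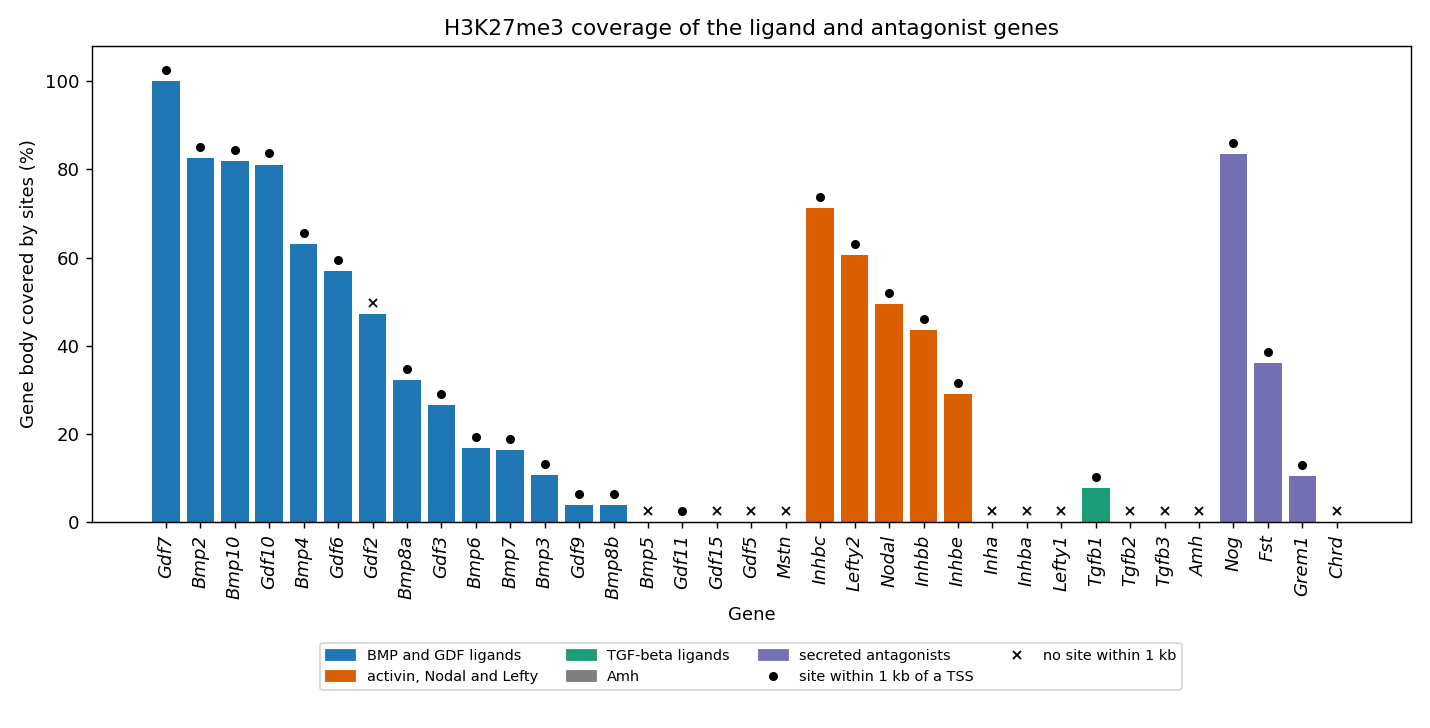
Share of each gene covered by H3K27me3 sites (y axis, percent of bases between gene start and end), with 1 bar per gene grouped by family and coloured as in the key. A dot above a bar marks a gene with a site in the 1 kb around a TSS, and a cross a gene without. Gdf7 is covered whole, Nog at 83.4%, and the TGF-beta ligands have a single bar, Tgfb1 at 7.75%.

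Gene length bears on coverage, because the same site fills more of a short gene. Of the 8 member genes longer than 20 kb, 0 reached 50%, although 5 had a site at a TSS. In all protein-coding genes, 16.3% of those under 5 kb and 4.9% of those of 50 kb or more reached 50%. The median length of the 35 genes was 8684 bp, against 17414 bp over all protein-coding genes. The share with a site at a TSS changed in the other direction among all genes, with 22.4% under 5 kb and 35.1% from 50 kb on. The part of gene length in the members' values was not tested.

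For reading the values by gene, promoter sequences of 300 bases (250 before and 50 after the RefSeq start, GRCm38.p6) are shown for the gene of each family with the highest coverage and for 1 gene of the same family that has a CpG island at a TSS but no site. RefSeq entries were at hand for 22 of the 35 genes. Nog, Lefty1 and Tgfb3, which the rule picks, have none, nor has Fst, which follows Nog. Grem1, Inha and Tgfb2 are the next in order with an entry. No BMP or GDF gene with a CpG island lacked a site. Capitals mark each CpG dinucleotide (CG, which reads the same on both strands).

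For the BMP and GDF ligands it is Gdf7, a factor of the dorsal neural tube (chr12:8301905-8302204, reverse strand), whose window lay wholly in a site.
Gdf7: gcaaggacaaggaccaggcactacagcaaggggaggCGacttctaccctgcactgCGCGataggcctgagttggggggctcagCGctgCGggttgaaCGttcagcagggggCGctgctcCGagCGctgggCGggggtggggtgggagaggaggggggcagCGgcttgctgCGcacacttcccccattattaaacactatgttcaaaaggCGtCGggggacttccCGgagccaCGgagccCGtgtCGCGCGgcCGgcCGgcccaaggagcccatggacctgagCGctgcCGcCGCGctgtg

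The activin pair is Inhbc (chr10:127370499-127370798, reverse strand), with 100% of the window in a site, and Inha (chr1:75507359-75507658, forward strand), with none. The Inha window holds 5 CpG and lies inside the GENCODE gene, which starts at 75507077, so it does not contain the TSS used here.
Inhbc: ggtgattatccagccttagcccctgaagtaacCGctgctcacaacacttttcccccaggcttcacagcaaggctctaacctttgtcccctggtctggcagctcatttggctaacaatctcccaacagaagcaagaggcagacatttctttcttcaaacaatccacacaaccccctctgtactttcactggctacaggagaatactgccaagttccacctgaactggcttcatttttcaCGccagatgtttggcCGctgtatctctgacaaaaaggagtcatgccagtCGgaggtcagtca
Inha: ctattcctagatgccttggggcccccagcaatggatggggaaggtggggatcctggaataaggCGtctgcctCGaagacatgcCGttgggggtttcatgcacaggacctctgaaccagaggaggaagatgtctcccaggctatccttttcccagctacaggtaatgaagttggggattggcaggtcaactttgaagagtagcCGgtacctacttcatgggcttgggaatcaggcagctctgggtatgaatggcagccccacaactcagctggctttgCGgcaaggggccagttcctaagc

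The TGF-beta pair is Tgfb1 (chr7:25686752-25687051, forward strand) and Tgfb2 (chr1:186705940-186706239, reverse strand). No site overlapped either window, since the site of Tgfb1 begins downstream of its first TSS.
Tgfb1: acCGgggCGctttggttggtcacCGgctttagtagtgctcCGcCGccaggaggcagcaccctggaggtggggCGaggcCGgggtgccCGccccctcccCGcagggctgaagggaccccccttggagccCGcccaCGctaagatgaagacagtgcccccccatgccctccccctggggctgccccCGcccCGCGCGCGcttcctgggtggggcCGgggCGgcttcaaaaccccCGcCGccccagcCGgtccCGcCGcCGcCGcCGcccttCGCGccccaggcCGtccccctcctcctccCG
Tgfb2: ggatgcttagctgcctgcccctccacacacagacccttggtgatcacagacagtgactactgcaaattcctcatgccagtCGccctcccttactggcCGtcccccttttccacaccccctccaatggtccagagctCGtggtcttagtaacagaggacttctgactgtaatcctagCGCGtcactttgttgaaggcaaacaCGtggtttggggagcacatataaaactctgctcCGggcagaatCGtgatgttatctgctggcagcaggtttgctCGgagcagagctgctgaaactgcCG

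The antagonist pair is Grem1 (chr2:113758599-113758898, reverse strand), wholly in a site, and Chrd (chr16:20732877-20733176, forward strand), outside any site.
Grem1: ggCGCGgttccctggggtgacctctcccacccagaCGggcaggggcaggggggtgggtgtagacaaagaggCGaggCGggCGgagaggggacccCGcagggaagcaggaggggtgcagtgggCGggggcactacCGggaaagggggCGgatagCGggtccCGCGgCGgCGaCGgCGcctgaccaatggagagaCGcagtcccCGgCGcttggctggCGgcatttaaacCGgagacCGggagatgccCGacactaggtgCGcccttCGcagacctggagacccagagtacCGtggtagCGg
Chrd: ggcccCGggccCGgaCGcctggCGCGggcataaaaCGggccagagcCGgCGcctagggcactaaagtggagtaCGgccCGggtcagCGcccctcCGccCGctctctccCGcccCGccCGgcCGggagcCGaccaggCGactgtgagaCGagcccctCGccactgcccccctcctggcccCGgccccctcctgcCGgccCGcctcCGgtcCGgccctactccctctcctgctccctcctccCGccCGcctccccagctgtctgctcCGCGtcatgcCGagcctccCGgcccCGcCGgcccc

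Some of these windows were rich in CpG without a site, and others were poor in CpG and inside one. The window of Chrd had 34 CpG and that of Tgfb1 30, and neither touched a site. The Inhbc window, wholly in a site, had 4. In the table of 32851 RefSeq promoters the median was 7 CpG, 7.73% had at least as many as Chrd and 68.6% at least as many as Inhbc. Over the 14 windows of genes with a site the number ranged from 3 (Bmp10) to 42 (Gdf10) with a median of 23. These windows were grouped by the gene, and those of Bmp4, Gdf11, Inhbe and Tgfb1 had no covered base themselves. Over the 9 windows of genes without a site (2 of them of Gdf15) it ranged from 1 to 34 with a median of 6, so the ranges overlap.

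CpG islands were also sought in the genome sequence within 1 kb of every GENCODE TSS. An island was present in 24 of the 35 genes (68.6%), against 58.3% of all protein-coding genes, and 19 of these 24 had a site. Of all protein-coding genes with an island, 26.6% had a site. Of the 11 member genes without an island, 4 had a site (Bmp10, Gdf3, Inhbc and Inhbe), against 27.3% of all protein-coding genes without one. In the BMP and GDF family a site was present in 12 of 12 genes with an island and 2 of 7 without. These 12 include Gdf9 and Gdf11, whose sites contain no TSS and which drop out where the TSS must lie in a site. In the activin and Nodal family the counts were 3 of 5 with an island and 2 of 3 without, and in the TGF-beta family 1 of 3 with an island. The 5 island genes lacking a site were Inha, Lefty1, Tgfb2, Tgfb3 and Chrd.

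**Figure D2:**
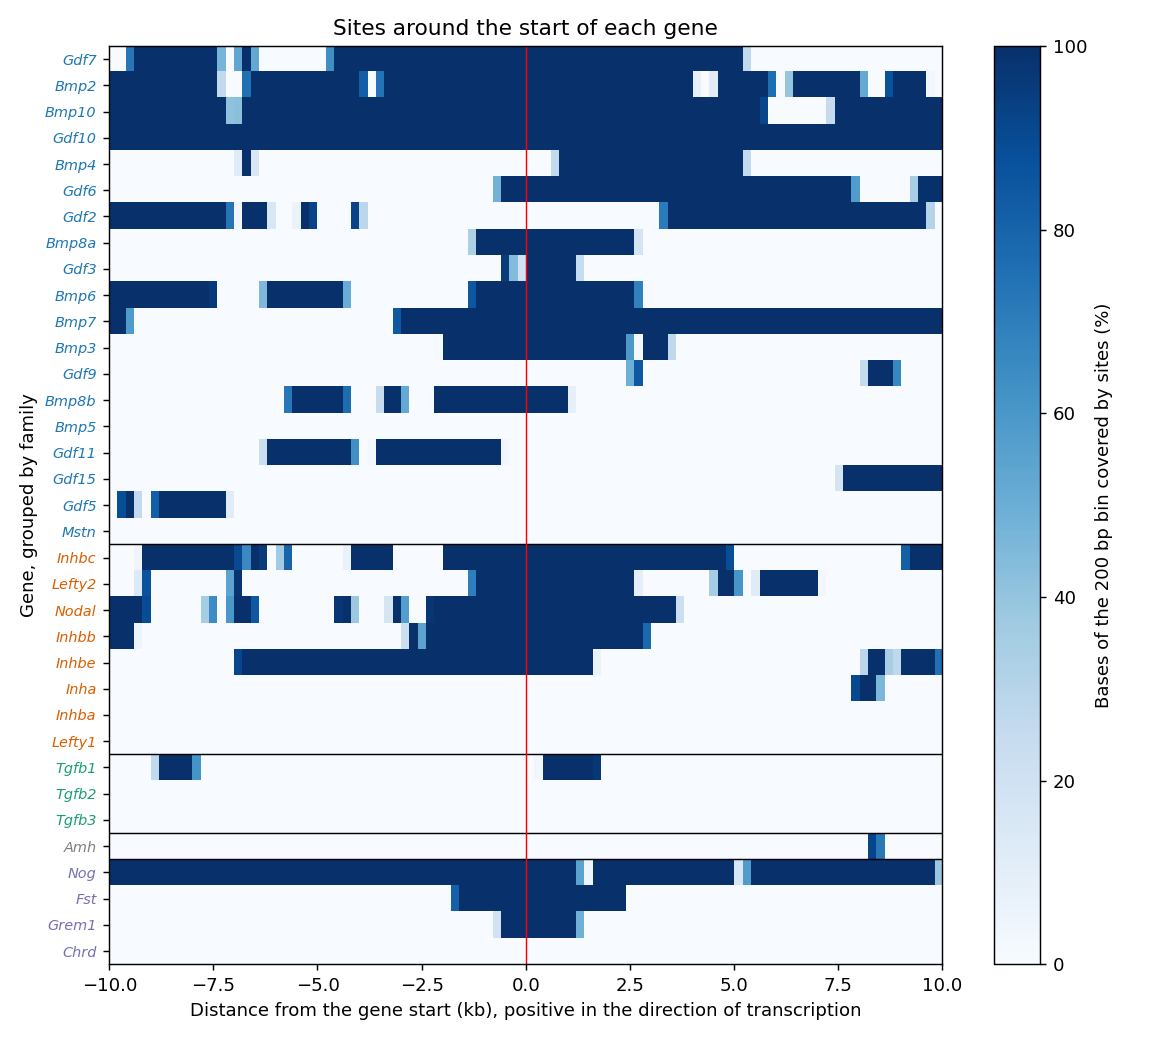
Coverage by sites in 200 bp bins (colour, percent of the bin) from 10 kb before to 10 kb after the outermost annotated start of each gene (x axis, in kb, positive in the direction of transcription), 1 row per gene, ordered by family and gene coverage. Dark bands cross the line of the gene start in most BMP, GDF and activin rows, the band of Bmp4 starts 748 bp after it, that of Gdf11 ends 594 bp before it, and the rows of Bmp5, Mstn, Inhba, Lefty1, Tgfb2, Tgfb3 and Chrd are empty.

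Among the BMP ligands, 8 of 9 genes had a site at a TSS, and all but Bmp5 did. Bmp2, which promotes bone formation and is needed for the heart, had a site of 7564 bp (chr2:133548611-133556174) over its TSS and first exons. A further 4 sites followed through the introns, the last coding exon and the 3′ end, so that 82.6% of the gene and 100% of its coding bases were covered. Its marked region went on beyond the gene, with 94.2% of the 5 kb upstream and 100% of the 5 kb downstream in sites. Bmp10, a ligand made mainly in the heart, had a similar arrangement. A site of 12667 bp (chr6:87422110-87434776) and one of 8260 bp left 81.9% of the gene covered, and the 5 kb on either side were covered whole. Bmp10 has no CpG island at its TSS, and its RefSeq promoter window holds 3 CpG.

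Bmp4, a regulator of dorsoventral patterning and mesoderm, differed in the position of its site. The site of 4503 bp (chr14:46385419-46389921) lay wholly inside the gene and covered 63.0% of it. It contained 1 of the 4 annotated TSSs, an internal one, and began 748 bp downstream of the outermost one. The RefSeq promoter window of Bmp4, with 12 CpG, had no covered base, and the 5 kb upstream of the gene had none either.

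The longer BMP genes were covered near their starts and only in part beyond. Bmp7, which acts in kidney and eye development, had the widest site of this subgroup, 15035 bp (chr2:172928455-172943489). It filled 11867 bp of the first part of the 72310 bp gene, or 16.4%. Bmp6, known for its control of iron balance through hepcidin, had 17 sites along 155196 bp. The one at its start (4107 bp) was followed by a group within the first 20 kb and by another group from the middle of the gene on, and together they covered 16.8%. The third TSS of Bmp6, 49338 bp into the gene, lay 29629 bp from any site. Bmp3, a ligand that opposes bone-forming BMPs, had a site of 4522 bp over all of its 3 TSSs and a small intronic one, for 10.6% of the gene.

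The neighbouring genes Bmp8a and Bmp8b, which act in the germ line, lie 180545 bp apart on chromosome 4. Bmp8a had a site of 3901 bp at its start and 2 more in introns and exons (32.1% of the gene). Bmp8b had 3217 bp at its start, of which 1016 bp lay in the gene (3.77%). The second TSS of Bmp8b, 14159 bp into the gene, was 13144 bp from a site. Sites covered 61.2% of the interval between both genes, which holds 4 other protein-coding genes. The genes are similar in sequence, but 92.9% (Bmp8a) and 92.4% (Bmp8b) of the stretches of 75 bases in them, the length of the reads, occur once in the genome.

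Of the 10 GDF genes (Mstn included), 6 had a site at a TSS. Gdf7 was the gene of the module with complete coverage. Its site of 9979 bp (chr12:8296703-8306681) ran from 4727 bp upstream through the whole gene to 1215 bp past its end. Gdf10, a relative of Bmp3, had the widest TSS site of all 35 genes, 21407 bp (chr14:33912579-33933985). Of it, 11008 bp lay upstream, and with 3 small sites towards the 3′ end it covered 81.1% of the gene and 100% of the coding bases. Gdf6, which acts in joint and skull formation, had a site of 8611 bp (chr4:9843676-9852286) and 4 intronic ones, 56.9% of the gene in all but 30.5% of its coding bases. Gdf3, expressed in the early embryo, had a narrower site of 1286 bp and one of 279 bp just upstream (26.6%).

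In 2 GDF genes the site was at the border of the definition. The site at Gdf9, an oocyte factor, was 268 bp wide and lay in a coding exon, 225 bp from the nearest of its 3 TSSs and 2501 bp from the outermost one. Gdf11, which patterns the body axis, had a site of 3011 bp (chr10:128892312-128895322) that ended 594 bp upstream of its TSS. No base of the Gdf11 gene was covered. Its RefSeq promoter window held 36 CpG and lay outside the site.

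Gdf2 encodes the circulating ligand BMP9 and lies directly downstream of Gdf10 with 3055 bp between them. No site was within 1 kb of its TSS. A site of 6402 bp (chr14:33944297-33950698) began 3258 bp downstream of the TSS, covered 47.1% of the gene and 84.8% of its exons, and ran past the gene end. The interval between Gdf10 and Gdf2 had no covered base. Over the 23612 bp from the start of Gdf10 to the end of Gdf2, 61.7% was in 5 sites. Of the 12 genes without a site at a TSS, Gdf2 was the only one with a covered base.

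For the other GDF genes no covered base was found in the gene. The nearest site was 7179 bp from the TSS of Gdf5, a joint-forming ligand, and lay upstream. It was 7204 bp away for the stress-induced Gdf15, in the region of the gene Lrrc25. For Mstn, the ligand that limits muscle growth, it was 54044 bp away and 205 bp wide, and no base of the 50 kb on either side was covered.

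In the activin and Nodal family the 5 genes with a site were covered between 29% and 71.2%, and the other 3 not at all. Inhbb, which encodes the beta subunit of activin B, had a site of 5419 bp (chr1:119419292-119424710) that covered 43.6% of the gene. Nodal, which specifies mesoderm and endoderm, had a site of 6038 bp (chr10:61415577-61421614) over its start, part of the coding sequence and 49.5% of the gene. Its Mb-scale surroundings were rich in sites, with 35.4% of the bases in the gene and 1 Mb on either side covered. This was the highest value of the 35 genes.

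Inhbc and Inhbe, activin beta subunits expressed mainly in liver, are neighbours on chromosome 10 with 1910 bp between them and share a site. This site of 8596 bp (chr10:127352799-127361394) contains the TSS of Inhbe and the last part of Inhbc, and covers the whole interval between them. The RefSeq promoter window of Inhbe (chr10:127351799-127352098) lies inside the GENCODE gene and had no covered base. A second site of 6976 bp lies over the start of Inhbc. Together they covered 71.2% of Inhbc with all of its coding bases, and 29% of Inhbe with no coding base. The coverage values of these 2 genes are thus not independent, whereas each has its own site at its TSS. No TSS site of any member gene contained a TSS of another protein-coding gene, whereas 10.5% of all protein-coding genes with a site had such a neighbour in their widest one.

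Lefty1 and Lefty2, which both inhibit Nodal and lie 35918 bp apart on chromosome 1, differed. Lefty2 had a site of 3957 bp (chr1:180891769-180895725) over both TSSs and 2 more towards its 3′ end, for 60.5% of the gene. Lefty1 had no covered base, and its nearest site, 34910 bp upstream, was the last one of Lefty2. Of the interval between them 2.81% was covered. The genes are close copies, but 95.4% (Lefty1) and 95.9% (Lefty2) of the 75-base stretches around their TSSs occur once in the genome. The TSSs of both have a CpG island.

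Inhba, which encodes the beta subunit of activin A, stood farthest from any site. The nearest one was 1488662 bp upstream, in Hecw1, and 99.3% of protein-coding genes had a nearer one. No base of the gene or of 1 Mb on either side was covered, which held for 315 protein-coding genes (1.45%). Of the 75-base stretches in its TSS windows, 100% occur once. Inha, the inhibin alpha subunit, had a CpG island but no covered base, and its nearest site was 7819 bp downstream.

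The TGF-beta ligands had the lowest coverage of the families with more than 1 gene. Tgfb1 had a site of 1401 bp (chr7:25687395-25688795) that began 393 bp after the first of its 5 TSSs and contained the second. It covered 7.75% of the gene and 27.1% of its coding bases. Tgfb2 and Tgfb3 had no covered base in the gene or in 50 kb on either side, and their nearest sites were 50284 bp and 88080 bp away, 246 bp and 435 bp wide. All 3 have a CpG island. The surroundings of Tgfb3 were not poor in sites at a larger scale, as 27% of the bases within 1 Mb were covered, against 0.597% for Tgfb2. Amh, which makes the Müllerian ducts regress, had no island and its nearest site, of 327 bp, was 8216 bp downstream in Jsrp1.

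**Figure D3:**
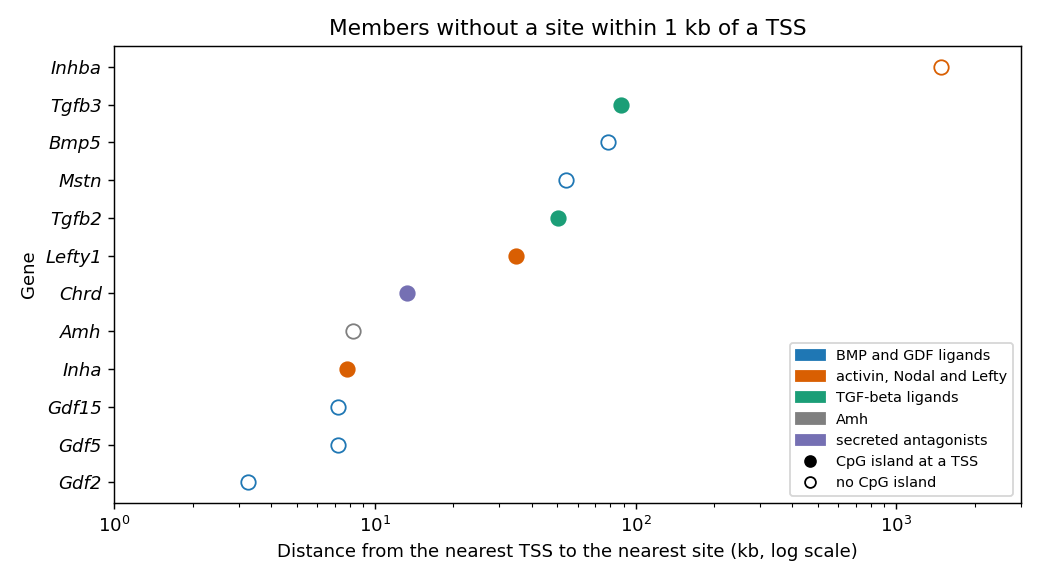
Distance from the nearest TSS to the nearest site (x axis, kb, log scale) for the 12 genes without a site within 1 kb, coloured by family, with filled points for a CpG island at a TSS. Gdf2, Gdf5, Gdf15, Inha and Amh lie below 10 kb, Tgfb2, Mstn, Bmp5 and Tgfb3 between 50 and 100 kb, and Inhba at 1488662 bp.

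Of the 12 genes without a site, 5 had one within 10 kb of a TSS and 5 at 50 kb or more. The median distance was 24098.5 bp, against 30137 bp for all protein-coding genes without a site. Bmp5, a skeletal BMP with no CpG island, was 78201 bp from a site of 382 bp. In Bmp5, Mstn, Inhba, Tgfb2 and Tgfb3 there was no covered base in the gene and 50 kb on either side, which is 5 of 35 genes and holds for 25.1% of all protein-coding genes. In the 12 genes at least 95.4% of the 75-base stretches around the TSSs and 94.3% of those in the gene occur once, counted over the chromosomes together with the patches and alternate sequences of GRCm38.p6. Nearly all read-length stretches of these genes thus have a single position in the genome.

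Of the secreted antagonists, Nog, which encodes the BMP-binding protein Noggin, was covered most. A site of 14648 bp (chr11:89301023-89315670) reached from 13338 bp upstream over its coding sequence, of which 100% was covered, and a second site lay over the 3′ end, for 83.4% of the gene. Nog has 1 exon and no intron. It is the only member gene with few unique stretches once patches and alternate sequences are counted, with 34% around the TSS and 26.7% in the gene, although 100% of both occur once in the chromosomes and scaffolds alone. Fst encodes follistatin, which binds activin. It had a site of 4161 bp (chr13:114456553-114460713) over 3 of its 6 TSSs, 36.0% of the gene and 8.32% of its coding bases. The site covered 9.85% of the bases in exons of any annotated transcript and 93.9% of the bases outside all of them. Grem1, which encodes the BMP antagonist Gremlin, had a site of 1936 bp at its TSS. This site covered 10.4% of the gene and none of the coding bases, which lie in a later exon. Chrd, encoding Chordin, had none, and the nearest site was 13287 bp downstream.

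In 15 of the 21 genes with a TSS inside a site (71.4%), the site reached farther into the gene than upstream, which was so for 68.3% of the 4650 protein-coding genes with a TSS inside a site. The median reach was 2737 bp inside and 2003 bp upstream, against 2786.5 bp and 1288.5 bp over these 4650 genes. The 6 with the longer reach upstream included Nog (13338 bp against 1310 bp), Inhbe (6983 bp against 1613 bp) and Gdf7 (4727 bp against 4037 bp). Reach into the gene was counted up to the gene end only, which leaves out the 1215 bp of the Gdf7 site past that end. The widest site at a TSS was 3000 bp or wider in 19 of 23 genes (82.6%) and 10000 bp or wider in 4 (17.4%), namely Bmp7, Bmp10, Gdf10 and Nog. Of all protein-coding genes with a site, 58.9% and 21.4% had one of these widths. The median width was 4522 bp in the 23 genes and 3978 bp over all protein-coding genes with a site. Averaged over all 35 genes, 46.9% of the 2 kb before and 53.6% of the 2 kb after the gene start were covered, against 16.0% and 17.6% over all protein-coding genes. At 8 to 10 kb upstream the averages were 27.6% and 13.2%. Taken over all member genes, sites covered 31.4% of coding bases, 24.9% of exons and 15.6% of introns. Bases were pooled over the genes here, so long genes weigh more, above all in the intron share. The same shares were not computed for all protein-coding genes. Whether the order of coding bases, exons and introns is particular to the members was therefore not tested.

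The other genes of the pathway were 65 on a list by role, and their shares were not compared with those of the ligands by a test. A site lay within 1 kb of a TSS in 18 of the 65 (27.7%), close to the 26.9% of all protein-coding genes. The count fell to 11 with sites of at least 3000 bp only (15.8% of all protein-coding genes) and to 10 when sites were counted by their centre (18.5%). Their median coverage was 0%, and 6 of 65 (9.23%) had at least 50% of the gene covered. An island was present in 52 of the 65 (80%), of which 12 had a site, and 58.3% of all protein-coding genes had an island.

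**Figure D4:**
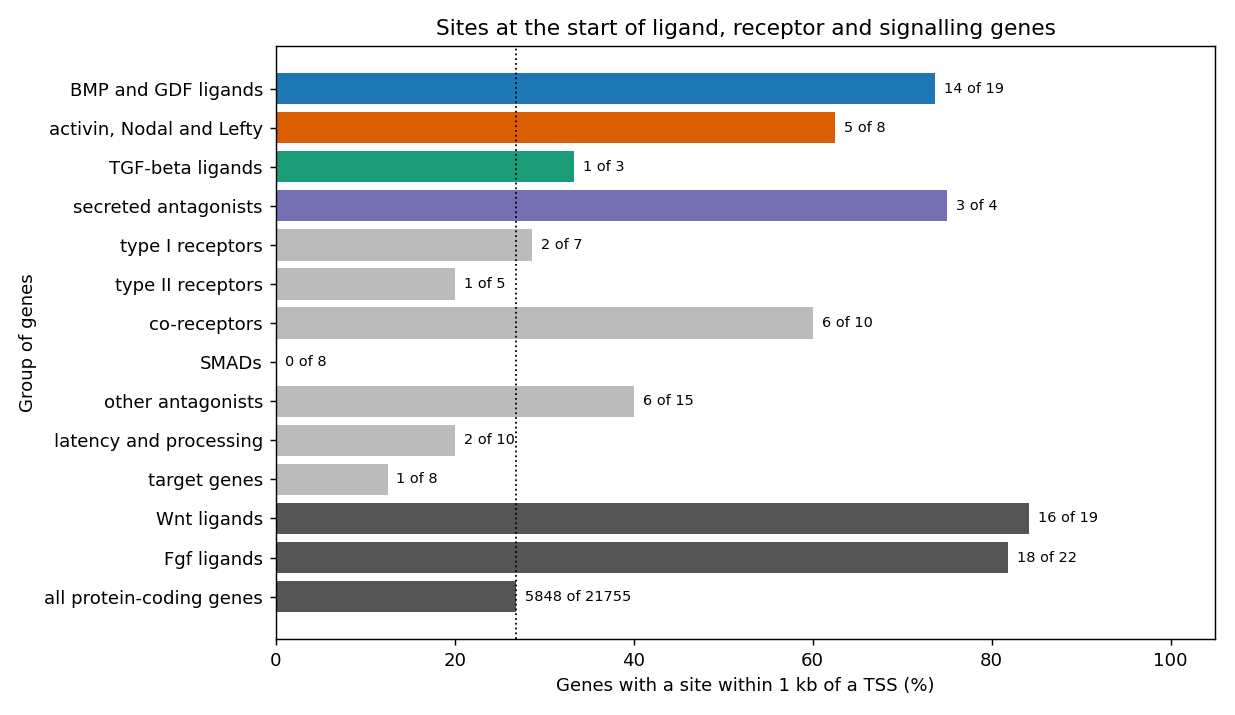
Percent of genes with a site within 1 kb of a TSS (x axis) for the ligand families and antagonists (coloured), the other pathway genes by role (light grey), and the Wnt and Fgf ligands with all protein-coding genes (dark grey), with the count beside each bar and a dotted line at the share of all protein-coding genes. BMP and GDF ligands (14 of 19), Wnt ligands (16 of 19) and Fgf ligands (18 of 22) have long bars, and the SMADs have none (0 of 8).

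The counts by role are small, were not compared by a test, and are to be read against the 26.9% of all protein-coding genes with a site and the 10.1% covered to at least 50%. None of the 8 SMAD genes had a site at a TSS or a covered base in the gene, although all 8 have a CpG island. Of the 12 receptor genes 3 had a site. These were Acvrl1, an endothelial receptor for BMP10 and BMP9 (site of 6240 bp, 18.5% of the gene), Acvr1c, a receptor for Nodal and some activins (2437 bp, 2.34%), and Acvr2b, a receptor for activins and myostatin (4767 bp, 13.2%). None of the 12 reached 50%. Of the co-receptors and membrane-bound modulators 6 of 10 had a site. Among them Hjv, the BMP co-receptor of iron control, was covered whole by a site of 10124 bp, and Cfc1, a co-receptor of Nodal, to 87.8% (81.3% of the 75-base stretches around its TSS occur once). Nrros, which anchors latent TGF-beta1, was covered to 43.6%, with 76.1% of the 75-base stretches around its TSSs occurring once.

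Antagonists beyond the 4 members had a site in 6 of 15 genes. Sost, which encodes the bone protein sclerostin, was covered whole by a site of 37966 bp, Chrdl2 to 88.6% by sites of up to 25795 bp, and Kcp, a modulator of BMP binding, to 68.5%. Of 10 genes for latency and processing 2 had a site, Tll2, a BMP1-like protease (82.5%), and Ltbp4, which binds latent TGF-beta (10.7%). Of 8 target genes the single one was Id4, an inhibitor of basic helix-loop-helix factors, with a site of 965 bp at 604 bp from its TSS. The ligands Gdf1 and Bmp15, which are not members, had no site at a TSS.

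Ligands of other signalling families had values of the same order. A site lay within 1 kb of a TSS in 16 of 19 Wnt genes (84.2%) and in 18 of 22 Fgf genes (81.8%), against 20 of the 31 ligand genes of the TGF-beta superfamily (64.5%) when the 4 antagonists are left out. The median coverage of the gene was 31.1% in the Wnt, 13.8% in the Fgf and 16.4% in these 31 genes. At least 50% was covered in 8 of 19, 6 of 22 and 8 of 31. The median width of the TSS site was 13041.5 bp in the Wnt genes, 4377.5 bp in the Fgf genes and 4970.5 bp in the 31 genes. These differences were not tested.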

How the data were processed

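H3K27me3 was measured by ChIP-seq in 8 libraries with 4 inputs, grouped by the sample titles and, for treated inputs, the recorded time point. According to the methods and the labels, the authors aligned trimmed single-end reads with BWA to mm10, filtered them with SAMtools, merged replicates and called broad peaks with MACS2, the versions, cutoffs and joining rule not being given in the sources used here. The deposited values used here are other than a signal: positions of 101389 sites, pooled over all samples, without count, score or depth, so no precision can be given. The study also names a list of sites changed at each time point, which was not used here. The list has 0 columns of per-sample values that went unused. Starts were read as counted from 0, since the smallest width is then 200 bp, and printed positions count from 1.

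Genes of GENCODE M21 were intersected with the sites (Python 3.11.15, numpy 2.4.6) at an overlap of at least 1 bp. CpG islands were maximal segments (score 17 for a CpG, -1 otherwise) of at least 200 bp in repeat-masked GRCm38.p6, with GC of at least 50% and an observed/expected ratio of at least 0.6. Uniqueness was the share of 75-base stretches found once. Scripts were tested on simulated sites.

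The members and lists were chosen with earlier results of these data known. All 35 members are accounted for; of pathway genes, the 3 per role with the highest coverage among those with a site are named, or all where fewer. No test was run. Alternatives changed the site width, merging, window, TSS set and gene span.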

Additional observations from a re-analysis of the deposited data

How the results depend on the processing

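The number of ligand and antagonist genes with a site within 1 kb of a TSS, 23 of 35 as reported, was between 17 (centre of a site in the window) and 23 over 11 alternatives. The share of all protein-coding genes ranged from 15.8% (sites of at least 3000 bp only) to 33.5% (window of 3 kb, where the members stayed at 23) and was 18.5% in the setting with 17 members. Counting by centre, Bmp7, Gdf6, Gdf11, Inhbc, Inhbe and Nog were lost. Gdf9 and Gdf11 were lost where the TSS itself had to lie in a site, and Gdf3, Gdf9, Tgfb1 and Grem1 where only sites of at least 3000 bp counted (19 of 35). No gene was gained in any of the alternatives, the 3 kb window included. The median coverage of the gene, 16.4%, was between 7.51% (without the 1 kb that follow the gene start) and 17.2% over 7 alternatives. The number of genes with at least 50% covered was between 6 and 10. For the 65 pathway genes, the count of 18 fell to 11 with sites of at least 3000 bp only and to 10 with the centre of a site in the window, where the shares of all protein-coding genes were 15.8% and 18.5%. These drops follow from the construction of both alternatives, which leave out narrow sites or wide ones centred elsewhere. No paired analysis was possible because the list has no value for a single library. Depth per library is unknown here, so a gene without a listed site may still carry H3K27me3 below the authors' cutoff.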
